A study of Homo sapiens with 8 samples.

Results

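T229038 is a target of a pooled CRISPRi screen for lncRNAs that affect the proliferation of colorectal cancer cells, and its 9 sgRNAs lie just downstream of a transcription start site (TSS) listed at chr22:18957961 on the plus strand. The 9 sgRNAs are all those listed under this target among the 6862 sgRNAs of the deposited counts. The paper describes a larger library, so statements below on the sgRNAs of the library cover the deposited ones only. The target was selected on measured values, namely the fall of 1 of its sgRNAs between the libraries taken before and after screening, so the before and after values of its sgRNAs are given as a description. Counts of its sgRNAs past the threshold of a test over the whole library are given in the same sense, and nothing is read from them. sgRNAs of other targets were included where their TSS lies within 50 kb, which holds for 9 sgRNAs of 2 targets. The screen was made in SW620, an established human colorectal adenocarcinoma line, carrying a dCas9/KRAB fusion protein. The group before screening had 4 libraries of genomic DNA from day 0, and the group after screening had 4 libraries from cells carried on in culture, with day 17 in their titles and a cultured time of 18 days in their labels. The groups differ in time in culture, and the cells of both carry the repressor and the library, which per the study's methods came from 4 separate infections at a low multiplicity. The library totals lay between 3417248 and 3999875 counts.

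In CRISPRi, an sgRNA brings a nuclease-dead Cas9 joined to the KRAB repressor domain to DNA near a TSS, and transcription from there is reduced. An sgRNA whose cells divide more slowly takes up a smaller share of the library as the culture goes on, and the share is read by counting sgRNA sequences in genomic DNA. The place of T229038 corresponds to the DGCR5 locus by its working name. DGCR5 is a lncRNA gene in the part of the long arm of chromosome 22 that is lost in DiGeorge syndrome. The deposited files carry target IDs only, and no genome of their build was used here, so the link from T229038 to DGCR5 was not checked, and no expression of the transcript in these cells was measured.

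The 9 sgRNA sequences are shown because 1 of them was called depleted and they differ in place and base content. Each is written 5′ to 3′, with the 12 bases nearest the PAM, the GG-containing motif that Cas9 needs beside its site, in capitals.
YLQ1201: gcctagacCCGCTGCCGGGC
YLQ1202: ggcgcctgGATGCCGGCCCG
YLQ1203: ccagtctcCGGCCCAGCCCC
YLQ1204: cggggaccGAAAGTCGCTTC
YLQ1205: aggggtcaGGCGGAGCGGGT
YLQ1206: gtggacgcCCTCTTCATCAT
YLQ1207: gcgtggacACTCACCTCCAG
YLQ1208: cggcgccaGAGCCCAGCAGG
YLQ1209: ccgtccagGGCTTCCAAGGC

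Read together, 5 of these sgRNAs cover an unbroken stretch of 98 bases, chr22:18958106-18958203, which is shown because it holds the depleted sgRNA and the sites on both sides of it. The plus strand is written, with the site of YLQ1205 in capitals.
Stretch: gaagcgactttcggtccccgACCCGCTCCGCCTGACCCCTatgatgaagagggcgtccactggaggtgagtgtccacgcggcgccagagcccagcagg
The stretch lies 145 to 242 bp downstream of the TSS, 67.3% of its bases are G or C, and it holds 9 CpG dinucleotides. It was put together from the sgRNAs themselves. An sgRNA listed on the minus strand reads as the plus strand from its listed position, and one listed on the plus strand reads as its reverse complement. With this reading, the shared bases were equal in 1067 of 1067 overlapping pairs of sgRNAs in the library, and the GG of the PAM was present at 1395 of 1395 sites where neighbouring sgRNAs cover it. With the opposite reading, 44 of the 1067 pairs were equal. For YLQ1205 the PAM read from its neighbours is CGG. The positions are those of the files. The submitters' processing notes name hg38, but of 588 targeting sgRNAs found letter for letter in RefSeq promoter windows of GRCh38.p14, 0 lay at the listed position within 1 bp, so the coordinates given here belong to another build, which is not given in the sources used here. None of the 18 sgRNAs of the locus was found in such a window.

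YLQ1205 was the sgRNA of T229038 that was called depleted. Its site is chr22:18958126-18958145, and it starts 165 bp downstream of the TSS. Before screening it had 208, 245, 199 and 215 counts in replicates 1 to 4, and after screening 56, 81, 97 and 50 counts. Scaled to RPM, the reads per 1000000 reads of a library, these are 52.0, 61.3, 57.3 and 55.9 before and 14.5, 23.4, 28.1 and 14.6 after. Every library after screening was below every library before, and the gap between the groups was 23.9 RPM. The share of all tested sgRNAs with such a separation is not given here. Nothing is therefore read from whether groups overlap, for YLQ1205 or the sgRNAs below. The mean went from 56.6 ± 3.80 RPM to 20.2 ± 6.74 RPM (SD, n = 4 each), which leaves 35.6% of the starting share. The edgeR log2 fold change was -1.48 with a standard error of 0.25. Taken by replicate number on the log2(RPM + 1) scale, the change was -1.77, -1.35, -1.001 and -1.87. As the groups do not overlap, any pairing of the libraries gives the same sign, so nothing is read from the sign. Before screening, the 4 libraries spread by 6.71% of their mean, against 6.79% from counting error alone. After screening they spread by 33.4%, against 11.9% from counting error.

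YLQ1205 had the 27th lowest log2 fold change of the 6126 targeting sgRNAs that could be tested, and the 10th lowest of the 4501 that had 100 counts or more in each of the 4 libraries from day 0. Among the 347 non-targeting control sgRNAs with as many counts, the log2 fold change ran from -0.42 to 0.48 with a median of 0.00. Among all 461 tested non-targeting sgRNAs, which include those with fewer counts, it ran from -2.09 to 1.21. These ranks are a description, as the target was chosen on this value. By the edgeR test with an adjusted p under 0.05, 1 of the 6 tested sgRNAs of T229038 was called depleted and 0 were called enriched. Over all 6587 tested sgRNAs, 46, or 0.698%, were called depleted, and nothing is read from the count for T229038.

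The other 5 tested sgRNAs of T229038 had a median log2 fold change of 0.00, against 0.01 over all tested targeting sgRNAs. Over all 6 the median was -0.06, and it lay between -0.16 and -0.05 when a library was left out. YLQ1201, at chr22:18958017-18958036 and nearest the TSS at 56 bp, had the lowest value after YLQ1205. It had 79, 93, 89 and 69 counts before and 68, 41, 37 and 43 after. In RPM these are 19.8, 23.3, 25.6 and 18.0 before and 17.6, 11.8, 10.7 and 12.6 after. The groups did not overlap, but the gap was 0.310 RPM, the space between replicate 4 before and replicate 1 after. The log2 fold change was -0.70 with a standard error of 0.36.

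YLQ1202, at chr22:18958057-18958076, was the most abundant sgRNA of the target, with 46.6% of its reads before screening. It had 501, 458, 547 and 483 RPM before and 529, 516, 575 and 481 RPM after, and the groups overlapped. Its log2 fold change was 0.09 with a standard error of 0.07. YLQ1207, at chr22:18958165-18958184, had 291, 319, 331 and 291 RPM before and 277, 339, 320 and 286 RPM after. Its log2 fold change was 0.00 with a standard error of 0.09. This is the tested sgRNA closest to YLQ1205, with a start 39 bp farther from the TSS, and it is listed on the same strand.

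YLQ1208, at chr22:18958184-18958203, had 113, 124, 114 and 130 RPM before and 113, 93.5, 89.9 and 140 RPM after. Replicates 2 and 3 were lower after screening, while replicate 4 was higher. The log2 fold change was -0.13 with a standard error of 0.14. YLQ1209, at chr22:18958253-18958272 and farthest from the TSS at 292 bp, had 62.6, 59.3, 64.0 and 60.4 RPM before and 80.7, 82.8, 57.7 and 61.7 RPM after. It began at nearly the same share as YLQ1205 and had a log2 fold change of 0.21 with a standard error of 0.18. The part of the starting share in the fall of YLQ1205 was not tested.

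The remaining 3 sgRNAs of T229038 were too rare to pass the count filter, which takes in the libraries of both groups. YLQ1203, at chr22:18958076-18958095, had 0, 14, 13 and 3 counts before and 0, 0, 3 and 14 after. YLQ1204, at chr22:18958106-18958125, had 0, 5, 0 and 0 before and 0, 17, 0 and 1 after. YLQ1206, at chr22:18958146-18958165, had 0 counts in all 4 libraries before, which allows up to 0.196 RPM over the group by a floor of 3 counts, and 1, 0, 0 and 1 after. The last of these is 1 of 29 targeting sgRNAs with 0 counts in every library before screening. Over the library, 4.12% of the targeting sgRNAs were too rare to be tested. Both sites that abut YLQ1205, those of YLQ1204 and YLQ1206, thus gave no usable measurement, and the tested sites nearest to it start 39 bp downstream (YLQ1207) and 69 bp upstream (YLQ1202).

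The summed share of the 9 sgRNAs moved by less than its spread between replicates. It was 1068 ± 49.6 RPM before and 1047 ± 38.1 RPM after (SD, n = 4 each), and without YLQ1205 it was 1011 ± 49.0 and 1026 ± 31.9 RPM. YLQ1205 made up 5.31% of the reads of the target before screening and 1.93% after. The range of log2 fold changes among the tested sgRNAs of T229038 was 1.69, the 40th widest of the 832 targets with at least 3 tested sgRNAs, for which the median range was 0.64. Its lower end is YLQ1205 at -1.48, the value the target was chosen on, and the other tested sgRNAs ran from -0.70 to 0.21. A range also depends on the number of tested sgRNAs, which differs between targets, so its rank is a description. The median of T229038 was the 125th lowest of the 832.

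The sgRNAs of T229038 were rich in G and C. Their GC counts ran from 11 to 17 of 20 bases with a median of 15, while the median over all targeting sgRNAs was 10. In all, 5 of the 9 had 15 or more, as did 4.96% of the 6389 targeting sgRNAs. YLQ1205 had 15, YLQ1201, YLQ1203 and YLQ1208 had 16, and YLQ1202 had 17. Of the others, YLQ1209 had 14, YLQ1204 and YLQ1207 had 13, and YLQ1206 had 11. Among the 304 tested targeting sgRNAs with 15 or more, 14, or 4.61%, were called depleted, and among the 5822 with 14 or fewer, 32, or 0.550%, were. The first of these sets includes YLQ1201, YLQ1202, YLQ1205 and YLQ1208, with log2 fold changes of -0.70, 0.09, -1.48 and -0.13, in this order. The part of GC content in the fall of YLQ1205 was not tested.

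In place, strand and runs of a base, YLQ1205 was within the range of the other sgRNAs of T229038. Its start at 165 bp was the median of the 9, and the median over all targeting sgRNAs, which start between 250 bp upstream and 500 bp downstream of their TSS, was 134 bp. All 9 sgRNAs of T229038 start downstream of the TSS. YLQ1205 is listed on the plus strand with 4 others, of which only YLQ1207 was tested. Its longest run of a single base is 4, as in YLQ1203 and YLQ1204. Its last 10 bases hold 8 G or C, as do those of YLQ1208, and those of YLQ1201, YLQ1202 and YLQ1203 hold 9. No other targeting sgRNA of the library shares the last 12 bases of any sgRNA of T229038.

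Of the targets within 50 kb, T229047 has its TSS at chr22:18957980, which is 19 bp from that of T229038 on the same strand. It is represented by 1 sgRNA, YLQ1210, at chr22:18958269-18958288, which shares 4 bases with the site of YLQ1209. YLQ1210 had 642, 708, 715 and 673 RPM before and 661, 683, 732 and 741 RPM after. The groups overlapped, and the log2 fold change was 0.05 with a standard error of 0.06 (edgeR, adjusted p = 0.985). Since both TSSs lie upstream of every one of these sites, the sgRNAs of T229038 sit within the same window of T229047, and the pair of targets cannot be told apart by position.

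T229068 has its TSS at chr22:18978236, 20.3 kb downstream on the same strand, and has 8 sgRNAs between chr22:18978200 and chr22:18978465. None of them fell or rose past the threshold. Their log2 fold changes lay between -0.17 (YLQ1213, standard error 0.21, adjusted p = 0.987 by edgeR) and 0.10 (YLQ1219, standard error 0.34, adjusted p = 0.999), with a median of -0.01. The summed share of T229068 was 1412 ± 45.0 RPM before and 1392 ± 79.3 RPM after (SD, n = 4 each). The best measured of its sgRNAs was YLQ1214, with 497, 520, 464 and 475 RPM before and 458, 517, 430 and 494 RPM after, a log2 fold change of -0.03 with a standard error of 0.07. YLQ1217 starts 165 bp downstream of its own TSS, as YLQ1205 does, and is listed on the same strand. It had 135, 130, 141 and 142 RPM before and 109, 104, 173 and 169 RPM after. Replicates 1 and 2 were below and replicates 3 and 4 above their levels before screening, and the log2 fold change was 0.03 with a standard error of 0.14. The part of position or strand in the fall of YLQ1205 was not tested.

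Of the remaining sgRNAs of T229068, none was called either. YLQ1211, YLQ1212, YLQ1215 and YLQ1218 had log2 fold changes of -0.04, -0.05, 0.01 and 0.06, in this order, and mean shares before screening of 42.4, 267, 91.4 and 306 RPM. For each of the 8 sgRNAs of T229068, the groups overlapped. The share of all tested sgRNAs with overlapping groups is not given here, so nothing is read from this. The GC counts of the 8 ran from 10 to 14, below that of YLQ1205. Over both neighbouring targets, 9 of 9 sgRNAs were tested and 0 were called in either direction by edgeR, against 0.774% of all tested sgRNAs, and the median log2 fold change was 0.01, with a sign that changed between alternatives (-0.05 to 0.04). At an unadjusted p under 0.05, 0 of the 9 passed by edgeR, against 6.19% of all tested sgRNAs, and 0 by DESeq2, against 8.9%. Each of these background shares amounts to less than 1 sgRNA of 9, so the counts are near the background.

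Farther along the chromosome, the next target upstream was T229010, 58.5 kb away and just outside the window. It had 7 tested sgRNAs, 0 of which were called (edgeR), and a median log2 fold change of -0.06 with a range from -0.57 to 0.15. The next target downstream was HIT000394880, 991 kb away, with 7 of 8 sgRNAs tested, 0 called and a median of 0.08. At an unadjusted p under 0.05, 0 sgRNAs of T229010 and 1 of HIT000394880, which was higher after screening, passed by edgeR, and the same numbers by DESeq2. Over all tested sgRNAs, 6.19% passed by edgeR and 8.9% by DESeq2. The sgRNAs tested on both sides of YLQ1205 on the chromosome, out to these targets, included none that was called by edgeR after adjustment. Over all tested sgRNAs, 0.774% were called, so the lack of a call among so few is near the background.

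A single called sgRNA was the usual case in this screen. Of 43 targets with an sgRNA called depleted, 41 had exactly 1, and 4 of these 41 had, like T229038, 6 tested sgRNAs, T229038 included. The 2 targets with more were ENST00000438432.1, with 3 of 7, and T047713, with 2 of 7. By the mean of log2 CPM over tested sgRNAs, centred for each sgRNA, the targets with a pattern over the 8 libraries most like that of T229038 were T132148 on chromosome 16 (Pearson's r = 0.932), T080860 on chromosome 12 (r = 0.902) and T236019 on chromosome 22 (r = 0.902), of 830 compared. T132148 had 1 called sgRNA of 9 tested, and the other two had 0. The lowest log2 fold changes of these 3 targets were -6.98, -0.54 and -0.51, in this order, with medians of 0.04, -0.02 and -0.04. The pattern of T229038 takes in the fall of YLQ1205, on which the target was chosen. The correlations are thus a description over 8 libraries that all targets share, and nothing is read from them.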

How the data were processed

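Genomic DNA of SW620 dCas9/KRAB cells was amplified over the sgRNA region by 2 rounds of PCR. The authors counted reads per sgRNA, and the deposited values are raw counts with no normalization. The submitters' processing notes name FastQC 0.11.2 and Bowtie; their settings are not given in any source used here. A first-round PCR primer carried a short random sequence, but no source used here says that reads were collapsed by it. Counting errors and floors (3 counts) thus cover counting error only. Counts were scaled to RPM by library total, and before and after screening were compared with edgeR 4.0.16 (R 4.3.3; TMM factors from 0.993 to 1.01, filterByExpr with a minimum of 10, robust quasi-likelihood test, Benjamini-Hochberg over 6587 sgRNAs of all targets). The filter left out 275 sgRNAs (4.01%). Alternatives were total-count and non-targeting scaling, DESeq2 1.42.0, no filter, at least 100 counts before screening, a replicate block, leaving out each library, and a two-tailed t-test on log2(RPM + 1), adjusted like the others and not the rule the paper used for the screen. Scripts were tested on simulated data. Named were all sgRNAs of T229038 and of targets within 50 kb, the next target on either side, targets with 2 or more called sgRNAs and the 3 most similar targets. The members and lists were chosen with earlier results of these data known. Nothing in the labels says that libraries of a group came from separate cultures, beyond the infections the methods describe.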

Additional observations from a re-analysis of the deposited data

Results flagged for a closer look

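The RPM values of the 18 sgRNAs were examined for 1 library far from the other 3 of its group, in 35 groups of 4 with any spread, and 3 stood out, by the gap to the nearest library over the whole range. Chance marks about 1 in 20 such groups where the values have a normal spread. For counts near 0, as those of YLQ1204, this rate does not hold. YLQ1204 had 1.25 RPM (5 counts) in replicate 2 before screening, where the other libraries were at 0, and 4.91 RPM (17 counts) in replicate 2 after screening, where the others lay between 0 and 0.293 RPM. Both values belong to an sgRNA too rare to be tested. YLQ1213 of T229068 had 40.8 RPM in replicate 1 before screening, where the others lay between 60.1 and 61.4 RPM, and it was also lowest in replicate 1 after screening, at 34.3 RPM. No library of YLQ1205 stood out in this way.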

How the results depend on the processing

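T229038 was selected on the fall of YLQ1205, so its values under other settings describe how they move and are no sign of reliability. The log2 fold change of YLQ1205 lay between -1.68 and -1.35 over all alternatives, which are also the bounds without a library. Of the 6 tested sgRNAs of T229038, 0 were called by the two-tailed test on log2(RPM + 1) after adjustment, where YLQ1205 was at -1.50, and 1 by each other alternative. At an unadjusted p under 0.05, 2 passed by that test, YLQ1205 and YLQ1201, against 6.56% of all 6587 tested sgRNAs. By DESeq2, the same 2 passed, against 8.9%, and by edgeR 1, YLQ1205, against 6.19%. The target was chosen on the fall of YLQ1205, so nothing is read from these counts. Over the library, after adjustment, the two-tailed test called 6 sgRNAs depleted and 0 enriched, edgeR 46 and 5, and DESeq2 75 and 18. Either other scaling called 47 and 2, and fits without a library 36 to 49 and 0 to 8. The cause was not tested. The median of T229038 was -0.0025 without the filter, which takes in YLQ1203, YLQ1204 and YLQ1206 at -0.68, 1.90 and 2.37 with standard errors of 1.05, 1.32 and 2.06. With 100 counts, which leaves out YLQ1201, it was -0.0044. Without a library, YLQ1208 ran from -0.2705 to -0.0469, YLQ1209 from 0.1294 to 0.2997 and YLQ1213 from -0.2923 to -0.0244. No neighbouring sgRNA was called under any alternative, but several changed sign. YLQ1215 was at -0.0026 by the two-tailed test, -0.0036 by non-targeting scaling and -0.0055 by total counts. YLQ1217 was at -0.0226 and YLQ1219 at -0.0782 by the two-tailed test. Without a library, values ran from -0.2397 to 0.0864 for YLQ1211, -0.1497 to 0.0220 for YLQ1212, -0.0749 to 0.0133 for YLQ1214, -0.0769 to 0.0927 for YLQ1215, -0.0972 to 0.1395 for YLQ1217 and -0.0699 to 0.4011 for YLQ1219. With the replicate number as a block, 52 and 7 sgRNAs were called, YLQ1205 was at -1.52, YLQ1217 at -0.0074 and YLQ1219 at -0.0318. Libraries of the same number deviated together only weakly (r = 0.0596, 0.112, 0.0694 and 0.0702 over 5119 sgRNAs), each correlating best with its own number, and were not taken as pairs.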

Other observations

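The 12 bases of each sgRNA of T229038 nearest the PAM, followed by any base and GG, were searched on both strands of the RefSeq promoter windows of 27305 genes (GRCh38.p14, 250 bases before to 50 after each start). A match is a description of letters and no sign of binding. YLQ1205 matched in 2 genes, TCF12 and TCF12-DT, or 0.00732% of the genes, and YLQ1201 in 2, CCPG1 and PIERCE2. Genes were counted and not sites, so a site in overlapping windows of 2 genes counts for each. YLQ1204, YLQ1208 and YLQ1209 matched in 1 gene each, YLQ1203 in 7, and YLQ1202, YLQ1206 and YLQ1207 in 0. The window of DGCR5 itself was not among those used.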
